A study of Helianthus annuus with 12 samples.

Results

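Isocitrate lyase (gene15722), glyoxysomal malate synthase (gene22141) and acyl-CoA oxidase 4 (gene46999) are 3 sunflower genes whose enzymes stand at the point where stored oil is broken down for sugar. They are 3 of the 7 genes whose deposited description reads isocitrate lyase, malate synthase or acyl-CoA oxidase, out of 48882 genes in the expression table. The table of descriptions has 65535 lines, a length at which some spreadsheet programs end a table, so counts of genes by description may miss members. The 3 were selected on their measured FPKM in all 12 seed libraries, and for that reason their levels and differences are given as descriptions, with no test. FPKM counts sequenced fragments per length of transcript and per depth of the library, so levels of different genes can be compared per length.

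Oilseeds store carbon as triacylglycerol in oil bodies. When the oil is used, lipases free its fatty acids, acyl-CoA synthetases activate them, and the peroxisome, called a glyoxysome in such seeds, shortens them by beta-oxidation. Acyl-CoA oxidases carry out the first step of each round and pass electrons to oxygen, and the hydrogen peroxide formed is broken down by catalase. In Arabidopsis the isoforms of this family differ in the chain length they prefer, and acyl-CoA oxidase 4 acts on short chains. The acetyl-CoA released enters the glyoxylate cycle, in which isocitrate lyase splits isocitrate into succinate and glyoxylate and malate synthase joins glyoxylate to acetyl-CoA. The cycle bypasses the carbon dioxide losses of the citric acid cycle, and its products can be turned into sugar by phosphoenolpyruvate carboxykinase and fructose-1,6-bisphosphatase. The cycle is best known from germinating oilseeds, while developing seeds are best known for making oil.

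The study sequenced RNA from seeds of 2 sunflower cultivars, 86-1 and L-1-OL-1, sampled 27 and 17 days after flowering (DAF). Each of the 4 groups, 86-1 at 27 DAF, 86-1 at 17 DAF, L-1-OL-1 at 27 DAF and L-1-OL-1 at 17 DAF, had 3 libraries. The series contrasts sunflowers of high and low oleic acid content, but the labels do not say which cultivar is which. The labels name no treatment and no mutant or transgenic line. The labels leave unsaid whether replicate libraries stem from different plants, so their spread, and any p-value built on it, may be technical.

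The labelled tissue was checked against marker genes named by words in their descriptions. Seed reserve genes (52 genes, such as storage globulins, albumins and oleosins) made up 2.86% to 22.4% of the summed FPKM of a library, whereas genes of the hull and secondary wall (58 genes) made up 0.0176% to 0.120% and genes of green tissue (104 genes) 0.0187% to 0.168%. No gene of the expression table was at 0 in all libraries, so these lists, and a list of 91 drying-seed genes, could not differ in this. The summed FPKM was 605655 to 683903 per library, and the relative sequencing depth recovered from the smallest steps of the values ranged from 0.796 to 1.22. The libraries of L-1-OL-1 at 17 DAF differed among themselves. Replicate 1 correlated with replicates 2 and 3 at r = 0.861 and 0.784 across genes, and with the 86-1 libraries at 17 DAF at 0.833 to 0.86. Replicates 2 and 3 of that group correlated with each other at 0.944. Replicate 3 correlated with the L-1-OL-1 libraries at 27 DAF at 0.746 to 0.788, replicate 2 at 0.677 to 0.718 and replicate 1 at 0.628 to 0.639. The group thus spread at both ends. The differences of the 3 selected genes that rest on this group are therefore given with and without replicate 1, and also without replicate 3. In bulk seed RNA, fewer cells of a type and less RNA per cell cannot be told apart.

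Isocitrate lyase, the enzyme that commits isocitrate to the glyoxylate cycle, is represented by 1 gene. In 86-1 at 27 DAF gene15722 had 553, 450.5 and 862 FPKM, against 3.15, 7.65 and 2.70 FPKM in 86-1 at 17 DAF. In L-1-OL-1 at 27 DAF it had 785, 1216 and 1400.4 FPKM, against 2.54, 251 and 837 FPKM at 17 DAF. All 3 libraries of 86-1 at 27 DAF lay far above all 3 at 17 DAF, while in L-1-OL-1 the highest 17 DAF library lay above the lowest 27 DAF library. The group means were 622 ± 214 FPKM in 86-1 at 27 DAF, 4.50 ± 2.74 in 86-1 at 17 DAF, 1134 ± 316 in L-1-OL-1 at 27 DAF and 364 ± 429 FPKM in L-1-OL-1 at 17 DAF (SD, n = 3 each). The gene ranked 81st to 117th of all genes in the 86-1 libraries at 27 DAF and 11928th to 20348th in those at 17 DAF.

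**Figure D1:**
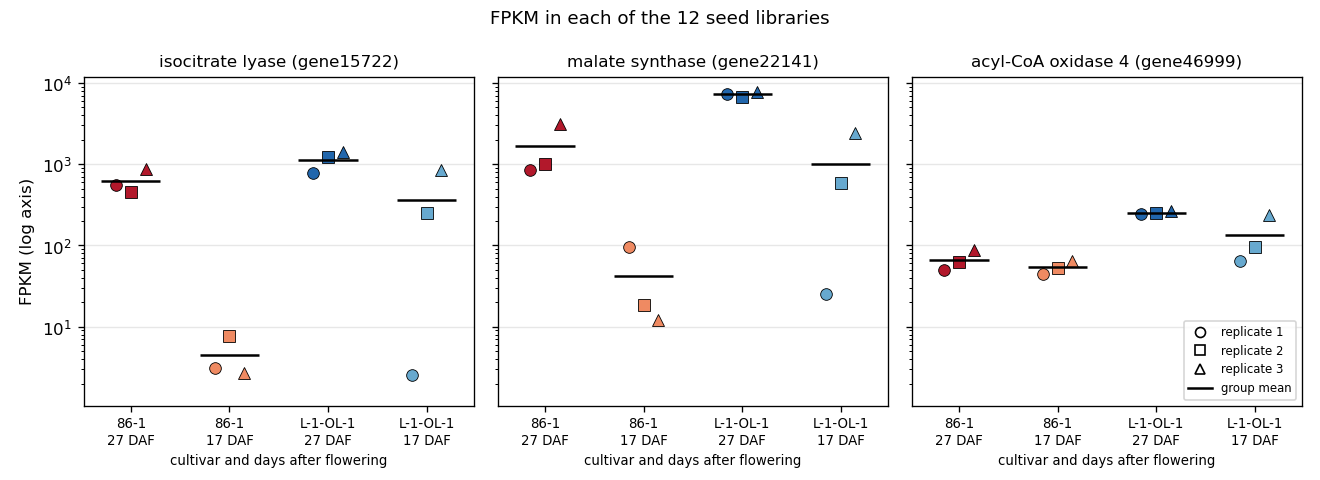
FPKM (log axis) of isocitrate lyase, malate synthase and acyl-CoA oxidase 4 in each of the 12 libraries, by cultivar and days after flowering; symbols mark the replicate number and bars the group means (n = 3). Isocitrate lyase and malate synthase are lowest in 86-1 at 17 DAF and in replicate 1 of L-1-OL-1 at 17 DAF, and acyl-CoA oxidase 4 is highest in L-1-OL-1 at 27 DAF, where it lies between 242 and 267 FPKM.

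The stage difference of isocitrate lyase on the log2(FPKM + 1) scale was 6.88 ± 1.43 in 86-1 and 3.60 ± 1.43 in L-1-OL-1 (27 minus 17 DAF, ± SE). Here and below the SE comes from 1 model over all 12 libraries, and the log2 scale understates changes of low values. The 86-1 minus L-1-OL-1 difference was -0.88 at 27 DAF and -4.15 at 17 DAF. Without replicate 1 of L-1-OL-1 at 17 DAF the stage difference in L-1-OL-1 was 1.26 and the cultivar difference at 17 DAF was -6.49, and without replicate 3 they were 5.21 and -2.55. Replicate 1 had 2.54 FPKM, a level like that of the 86-1 libraries at 17 DAF, and its group mates had 251 and 837 FPKM.

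Malate synthase, which acts next in the cycle, reached much higher levels. In 86-1 at 27 DAF gene22141 had 851, 995 and 3112 FPKM, against 96.6, 18.7 and 12.03 FPKM in 86-1 at 17 DAF. In L-1-OL-1 at 27 DAF it had 7375, 6772 and 7702 FPKM, against 25.0, 586 and 2392 FPKM at 17 DAF. Within each cultivar the 27 DAF libraries lay above all 17 DAF libraries, and at 27 DAF the 86-1 libraries lay below all L-1-OL-1 libraries. In the L-1-OL-1 libraries at 27 DAF this gene alone made up 1.12% to 1.27% of the summed FPKM and ranked 1st, 2nd or 3rd of all genes. The group means were 1653 ± 1266 FPKM in 86-1 at 27 DAF, 42.4 ± 47.1 in 86-1 at 17 DAF, 7283 ± 472 in L-1-OL-1 at 27 DAF and 1001 ± 1237 FPKM in L-1-OL-1 at 17 DAF (SD, n = 3 each).

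On the log2(FPKM + 1) scale the stage difference of malate synthase was 5.56 ± 1.30 in 86-1 and 4.45 ± 1.30 in L-1-OL-1. The difference of 86-1 minus L-1-OL-1 was -2.40 at 27 DAF and -3.50 at 17 DAF. Without replicate 1 of L-1-OL-1 at 17 DAF the stage difference in L-1-OL-1 was 2.62 and the cultivar difference at 17 DAF was -5.34, and without replicate 3 they were 5.88 and -2.08. The stage difference in 86-1 exceeded that in L-1-OL-1 by 3.27 ± 2.02 for isocitrate lyase and 1.11 ± 1.83 for malate synthase. Without replicate 1 of L-1-OL-1 at 17 DAF it did so by 5.61 and 2.94. Without replicate 3 of L-1-OL-1 at 17 DAF these values were 1.67 and -0.32.

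The ratio of malate synthase to isocitrate lyase FPKM was not the same in all groups. It was 1.54, 2.21 and 3.61 in 86-1 at 27 DAF and 30.7, 2.44 and 4.45 in 86-1 at 17 DAF. The L-1-OL-1 libraries had 9.40, 5.57 and 5.50 at 27 DAF and 9.84, 2.34 and 2.86 at 17 DAF. At 27 DAF all 3 ratios of 86-1 lay below all 3 of L-1-OL-1. At 17 DAF the ratio rests on an isocitrate lyase level of at most 7.65 FPKM in 4 of the 6 libraries, among them the library with the ratio of 30.7.

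Acyl-CoA oxidase 4, the peroxisomal enzyme of the first beta-oxidation step, had overlapping levels at both stages in 86-1 and its highest levels in L-1-OL-1 at 27 DAF. In 86-1 at 27 DAF gene46999 had 49.6, 62.1 and 89.0 FPKM, against 44.3, 53.4 and 64.4 FPKM in 86-1 at 17 DAF. In L-1-OL-1 at 27 DAF it had 242, 252 and 267 FPKM, against 64.1, 96.1 and 238 FPKM at 17 DAF. The stages overlapped in 86-1, and in L-1-OL-1 the lowest 27 DAF library was just above the highest 17 DAF library. At 27 DAF every 86-1 library was below every L-1-OL-1 library, with means of 66.9 ± 20.2 FPKM in 86-1 and 253 ± 12.9 FPKM in L-1-OL-1 (SD, n = 3 each). At 17 DAF the means were 54.0 ± 10.04 FPKM in 86-1 and 133 ± 92.6 FPKM in L-1-OL-1, and the cultivars overlapped.

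On the log2(FPKM + 1) scale acyl-CoA oxidase 4 differed by -1.95 ± 0.42 between 86-1 and L-1-OL-1 at 27 DAF and by -1.08 ± 0.42 at 17 DAF. Its stage difference was 0.28 in 86-1 and 1.15 in L-1-OL-1. Without replicate 1 of L-1-OL-1 at 17 DAF the cultivar difference at 17 DAF was -1.49 and the L-1-OL-1 stage difference 0.74. Without replicate 3 of that group they were -0.55 and 1.68.

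Ordered by mean FPKM, isocitrate lyase and malate synthase had the same sequence: L-1-OL-1 was first and 86-1 second, both at 27 DAF, and L-1-OL-1 came before 86-1 at 17 DAF as well. For isocitrate lyase all neighbours in this order overlapped in their libraries. For malate synthase the first pair did not overlap, with a mean 4.41-fold higher in L-1-OL-1 at 27 DAF than in 86-1 at 27 DAF, and the other neighbours overlapped. Acyl-CoA oxidase 4 had both L-1-OL-1 groups above both 86-1 groups by mean, and only its first pair of neighbours, the L-1-OL-1 stages, did not overlap. Over the 12 libraries the log2(FPKM + 1) values of isocitrate lyase and malate synthase had a Pearson r of 0.953. Acyl-CoA oxidase 4 had r = 0.682 with isocitrate lyase and 0.759 with malate synthase. These are descriptions over libraries that share cultivar and stage within groups of 3.

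The other acyl-CoA oxidase genes were measured in the same libraries. Of the 5 genes with this description, gene46999 was chosen by its levels, and 3 of the other 4 had at least 1 FPKM in at least 3 libraries and were tested with limma on log2(FPKM + 1). The fourth, gene80352, described only as an acyl-CoA dehydrogenase/oxidase, reached at most 1.401 FPKM. None of the 3 tested genes passed an adjusted p of 0.05 in any of the 5 comparisons: the stages within each cultivar, the cultivars at each stage, and the difference between the cultivars' stage changes.

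Acyl-CoA oxidase 2 (gene21309), whose Arabidopsis counterpart prefers long chains, had 31.6, 34.3 and 62.2 FPKM in 86-1 at 27 DAF, against 13.6, 15.6 and 16.8 FPKM at 17 DAF. In L-1-OL-1 it had 60.6, 59.5 and 43.4 FPKM at 27 DAF, against 12.4, 50.5 and 88.8 FPKM at 17 DAF. The 86-1 stages did not overlap, and replicate 1 of L-1-OL-1 at 17 DAF again lay at the level of 86-1 at 17 DAF. Its stage difference in 86-1 was 1.36 ± 0.54 (limma, adjusted p = 0.108) and its cultivar difference at 17 DAF was -1.28 ± 0.54 (limma, adjusted p = 0.106). Without replicate 1 of L-1-OL-1 at 17 DAF the 86-1 stage difference stayed at 1.36, with an adjusted p of 0.00621 (limma). That comparison uses no L-1-OL-1 library, so leaving one out moves only its p-value, through the shared spread and the adjustment. The cultivar difference at 17 DAF became -2.06 (adjusted p = 0.000429), and the stage differences then differed between cultivars by 1.67 (adjusted p = 0.0165). Without replicate 3 of the same group the 86-1 stage difference had an adjusted p of 0.0463 and the cultivar difference at 17 DAF was -0.69 (adjusted p = 0.382). With median-of-ratios scaling and with quantile normalization both differences passed the threshold, with adjusted p of 0.0245 and 0.0215 for the stage and 0.0436 and 0.0482 for the cultivar, and with the 6 libraries of 86-1 alone the stage difference had an adjusted p of 0.0245.

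Acyl-CoA oxidase 1 (gene70956) averaged 63.2 ± 10.7 FPKM in 86-1 at 27 DAF, 54.9 ± 3.72 in 86-1 at 17 DAF, 89.3 ± 16.9 in L-1-OL-1 at 27 DAF and 67.5 ± 31.4 FPKM in L-1-OL-1 at 17 DAF (SD, n = 3 each). Acyl-CoA oxidase 3 (gene80353), a medium-chain enzyme in Arabidopsis, averaged 50.6 ± 10.5, 37.5 ± 16.0, 69.9 ± 13.4 and 53.9 ± 38.0 FPKM in the same 4 groups. The largest of their log2 differences over the stage and cultivar comparisons was 0.63, for acyl-CoA oxidase 3 between the stages in L-1-OL-1 (limma, adjusted p = 0.323). The L-1-OL-1 stage difference was 0.13 for gene70956 and 0.025 for gene80353 without replicate 1 at 17 DAF. Without replicate 3 of L-1-OL-1 at 17 DAF their stage differences in L-1-OL-1 were 0.83 (limma, adjusted p = 0.046) and 1.16 (limma, adjusted p = 0.048).

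Acyl-CoA oxidase 4 took a different share of the family in each cultivar. It made up 28.2% to 31.1% of the summed acyl-CoA oxidase FPKM in 86-1 at 27 DAF and 32.8% to 33.6% in 86-1 at 17 DAF. In L-1-OL-1 it made up 50.5% to 56.3% at 27 DAF and 48.3%, 36.9% and 45.7% at 17 DAF. Every L-1-OL-1 library was above every 86-1 library, replicate 1 of L-1-OL-1 at 17 DAF included. In that library the family summed to 133 FPKM, near the lowest 86-1 library at 17 DAF with 132 FPKM.

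**Figure D2:**
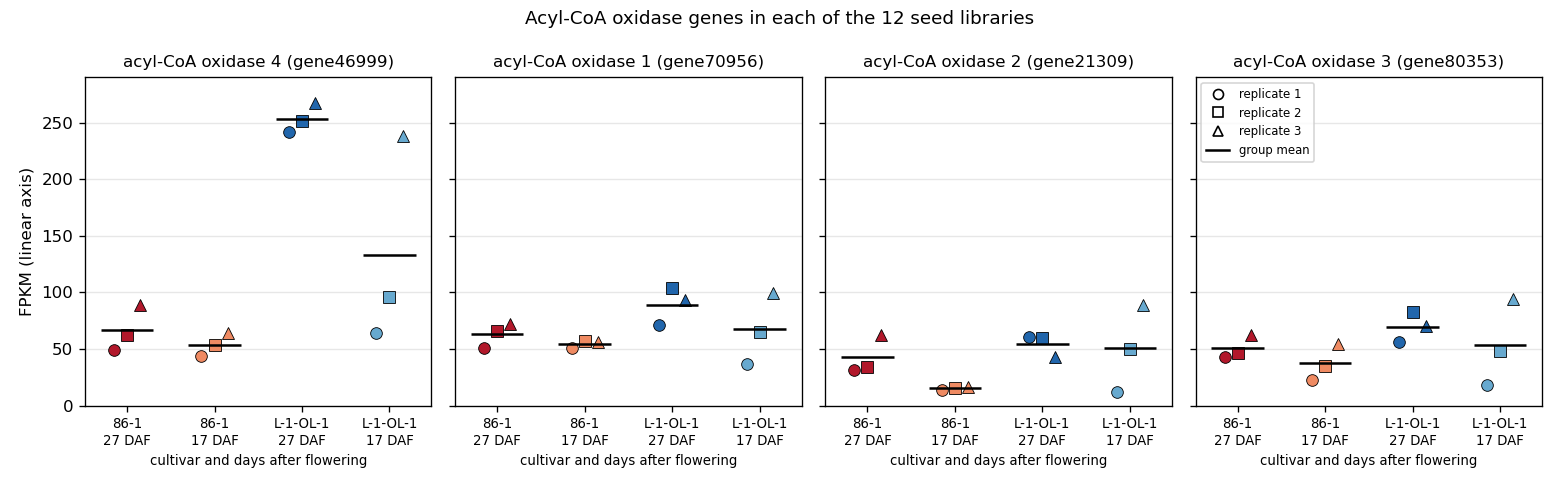
FPKM (linear axis) of the 4 acyl-CoA oxidase genes with measurable levels in each of the 12 libraries, by cultivar and days after flowering; symbols mark the replicate number and bars the group means (n = 3). Acyl-CoA oxidase 4 stands at 242 FPKM or more in L-1-OL-1 at 27 DAF, where the other family members reach at most 104 FPKM.

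The rest of the route was followed with 146 further genes picked by words in their descriptions, of which 106 were expressed enough to be tested. In the stage comparison within 86-1, 11 of the 106 rose and 12 fell at 27 DAF, while 4.62% of all 30020 tested genes rose and 14.1% fell. In L-1-OL-1, 23 rose and 13 fell, while 20.4% of all tested genes rose and 22.3% fell. At 27 DAF, 17 were higher and 21 lower in 86-1 than in L-1-OL-1, against 21.2% and 27.1% of all genes, and at 17 DAF 13 were higher and 9 lower, against 15.6% and 11.4%. The difference of the stage changes was positive for 4 and negative for 8, against 8.5% and 13.6% of all genes.

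Those counts depended on scaling and on single libraries. Median-of-ratios scaling and quantile normalization gave 24 and 25 genes that rose, and 10 that fell under each, in 86-1; 15 higher and 17 lower under each in the cultivar comparison at 17 DAF; and 10 and 8 positive and 11 and 12 negative in the difference of the stage changes. Without replicate 1 of L-1-OL-1 at 17 DAF, 15 were higher and 36 lower in 86-1 at 17 DAF, when 41.0% of all tested genes passed the test, and the difference of the stage changes was positive for 17 and negative for 9. In the same comparison at 17 DAF the total was 13 without 86-1 replicate 2 or L-1-OL-1 replicate 2 and 14 without 86-1 replicate 3. The 86-1 stage total was 7 and 8 without the 17 DAF replicates 2 and 3, and 12, 14 and 13 without the 27 DAF replicates 1, 2 and 3. In the L-1-OL-1 stages 15 rose and 18 fell without replicate 1 at 17 DAF, and 38 rose and 11 fell without replicate 3 at 17 DAF. The total there was 23 without replicate 3 at 27 DAF, and the difference of the stage changes had 7 without replicate 2 of L-1-OL-1 at 17 DAF.

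**Figure D3:**
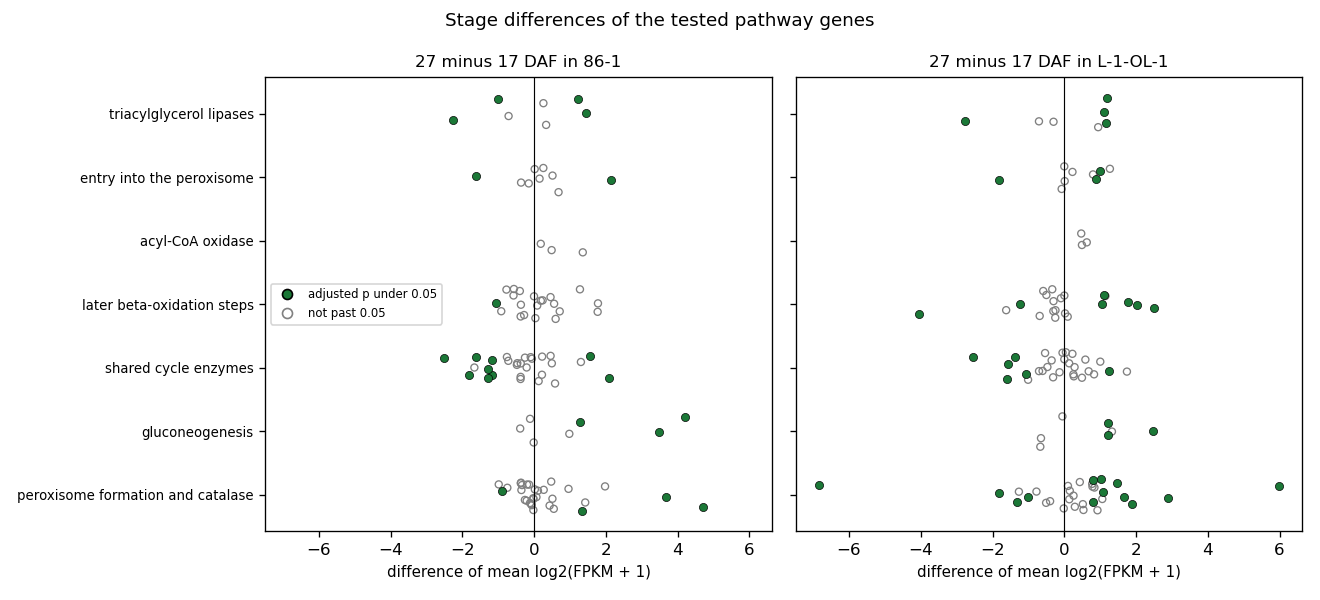
Difference of mean log2(FPKM + 1) between 27 and 17 DAF for each tested gene of the oil breakdown route other than the 3 selected genes, in 86-1 (left) and L-1-OL-1 (right), with 1 row per step. Filled points passed an adjusted p of 0.05 (limma), and open points did not. In gluconeogenesis 3 of 7 genes rose and none fell in each cultivar. Of all tested genes, 4.62% rose and 14.1% fell in 86-1, and 20.4% and 22.3% in L-1-OL-1.

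Before beta-oxidation, triacylglycerol lipases free the fatty acids. Of 7 tested lipase genes, 2 rose and 2 fell in 86-1 (4.62% and 14.1% of all tested genes). In L-1-OL-1 3 rose and 1 fell (20.4% and 22.3% of all tested genes). The triglyceride lipase gene26505 had 3.32, 4.999 and 6.57 FPKM in 86-1 at 27 DAF, against 21.2, 19.3 and 17.1 FPKM in L-1-OL-1 of that age. The lower means at 17 DAF were 3.72 ± 1.24 FPKM in 86-1 and 7.98 ± 2.67 FPKM in L-1-OL-1 (SD, n = 3 each). It was lower in 86-1 at 27 DAF by a log2 difference of -1.79 ± 0.30 (limma, adjusted p = 0.000419) and rose in L-1-OL-1 by 1.204 ± 0.30 (limma, adjusted p = 0.00773). Both calls held in every setting and without any 1 library. Of the other lipase genes of high mean level, gene25168 rose by 1.24 in 86-1 (limma, adjusted p = 0.034) and 1.17 in L-1-OL-1 (limma, adjusted p = 0.0225). The first call was lost without any 1 of the 86-1 libraries (adjusted p = 0.0665 to 0.104) or with no filter (0.0508). The second was lost without replicate 1 of L-1-OL-1 at 17 DAF or replicate 1 or 3 at 27 DAF (adjusted p = 0.053 to 0.0875) and with its 6 libraries alone (0.093). The patatin-like phospholipase gene1251 rose by 1.44 in 86-1 (limma, adjusted p = 0.0289), a call lost without any 1 of the 86-1 libraries (adjusted p = 0.0547 to 0.0985). Its rise of 1.11 in L-1-OL-1 (limma, adjusted p = 0.0465) was lost in 10 of 12 fits without 1 library, all but those without replicate 3 of 86-1 at 27 DAF or of L-1-OL-1 at 17 DAF (adjusted p = 0.0543 to 0.157), with no filter (0.0763) and with the 6 L-1-OL-1 libraries alone (0.151). The patatin-like gene69280 passed in no comparison with all libraries.

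Entry of fatty acids into the peroxisome needs an acyl-CoA synthetase and a transporter. Of 9 tested genes, 1 rose and 1 fell in 86-1 (4.62% and 14.1% of all tested genes). In L-1-OL-1 2 rose and 1 fell (20.4% and 22.3% of all tested genes). Long-chain acyl-CoA synthetases 6 and 7 are both peroxisomal in Arabidopsis. Of 5 tested genes described as synthetase 6, gene42142 had the highest mean level. It had 5.80, 7.12 and 8.08 FPKM in 86-1 at 27 DAF, against 11.4, 24.6 and 43.9 FPKM at 17 DAF, and 1.19, 3.91 and 2.67 FPKM in L-1-OL-1 at 27 DAF, against 10.4, 10.3 and 12.5 FPKM at 17 DAF. It fell by 1.61 in 86-1 (limma, adjusted p = 0.0189) and by 1.82 in L-1-OL-1 (limma, adjusted p = 0.00474), the second without exception over settings and single libraries. The call in 86-1 was lost without replicate 2 or 3 at 17 DAF or replicate 1 or 2 at 27 DAF (adjusted p = 0.0526 to 0.0859) and with the 6 libraries of 86-1 alone (0.0606). None of the other 4 synthetase 6 genes passed a stage test. Of these, gene1412 and gene28825 averaged 8.32 and 6.85 FPKM in 86-1 at 27 DAF and 4.65 and 6.54 FPKM in 86-1 at 17 DAF, with at most 0.0898 FPKM in any L-1-OL-1 library, and were chosen after their values were seen.

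Synthetase 7 (gene10240) had 68.0, 69.4 and 152 FPKM in 86-1 at 27 DAF, against 21.3, 20.1 and 17.3 FPKM at 17 DAF. It had 96.5, 130.04 and 111 FPKM in L-1-OL-1 at 27 DAF, against 13.2, 53.0 and 132 FPKM at 17 DAF. It rose in 86-1 by 2.15 ± 0.62 (limma, adjusted p = 0.0307), a call lost without any 1 of the 27 DAF libraries of 86-1 or without replicate 2 or 3 at 17 DAF (adjusted p = 0.055 to 0.108), and with no filter (0.0584). In L-1-OL-1 its difference was 1.27 ± 0.62 (limma, adjusted p = 0.116). That value was 0.41 (adjusted p = 0.458) without replicate 1 at 17 DAF and 2.02 (adjusted p = 0.00767) without replicate 3. The peroxisomal ABC transporter 1 gene (gene12397), which imports fatty acids or their CoA esters, averaged 28.1 ± 7.23 FPKM in 86-1 and 61.4 ± 4.81 FPKM in L-1-OL-1 at 27 DAF (SD, n = 3 each). That difference, -1.12 ± 0.37 (limma, adjusted p = 0.0237), was lost without replicate 1 or 2 of either cultivar at 27 DAF (adjusted p = 0.0539 to 0.0818).

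After the oxidases, hydratase, dehydrogenase and thiolase steps complete each round. The list of 21 tested genes was taken by words and also holds enzymes of branched-chain amino acid breakdown. In 86-1 none of the 21 rose and 1 fell (4.62% and 14.1% of all tested genes). In L-1-OL-1 5 rose and 2 fell (20.4% and 22.3% of all tested genes). The 3-hydroxyacyl-CoA dehydrogenase gene43166 had 30.5, 35.8 and 49.1 FPKM in 86-1 at 27 DAF, against 92.2, 94.6 and 118 FPKM in L-1-OL-1 of that age. The cultivars overlapped at 17 DAF, with means of 27.2 ± 1.80 FPKM in 86-1 and 29.8 ± 10.05 FPKM in L-1-OL-1 (SD, n = 3 each). It rose in L-1-OL-1 by 1.79 ± 0.29 (limma, adjusted p = 0.000592) and was lower in 86-1 at 27 DAF by a difference of -1.40 ± 0.29 (limma, adjusted p = 0.00184), and both calls held in every setting and without any 1 library. The other 3 genes of highest mean in this list passed in no comparison with all libraries. The peroxisomal 3-ketoacyl-CoA thiolase 3 gene (gene8391) averaged 256 ± 55.9 FPKM in 86-1 at 27 DAF, 169.5 ± 42.7 in 86-1 at 17 DAF, 324 ± 48.5 in L-1-OL-1 at 27 DAF and 376 ± 242 FPKM in L-1-OL-1 at 17 DAF (SD, n = 3 each). The enoyl-CoA hydratase/isomerase genes gene50328 and gene50152 averaged 124.5 ± 21.8 and 70.6 ± 29.0 FPKM in 86-1 at 27 DAF, against 113 ± 51.5 and 149.7 ± 21.4 FPKM in L-1-OL-1 of that age. All 3 were lower in 86-1 at 17 DAF without replicate 1 of L-1-OL-1 at 17 DAF, by differences of -1.52, -1.17 and -1.93 in the order named (limma, adjusted p = 0.00381, 0.0338 and 0.00284), and without replicate 3 these were -0.44, -0.15 and -0.59 (adjusted p = 0.534, 0.871 and 0.371).

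The multifunctional protein MFP-a (gene45323), which carries the hydratase and dehydrogenase steps, is named here for the word glyoxysomal in its description, outside the rule for named genes and after values were seen. It averaged 14.6 ± 3.69 FPKM in 86-1 at 27 DAF, 18.2 ± 6.34 in 86-1 at 17 DAF, 21.9 ± 8.98 in L-1-OL-1 at 27 DAF and 34.4 ± 24.2 FPKM in L-1-OL-1 at 17 DAF (SD, n = 3 each), and it passed the test in no comparison (limma, lowest adjusted p = 0.304).

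The glyoxylate cycle shares citrate synthase, aconitase and malate dehydrogenase with the citric acid cycle. Of 28 tested genes of these enzymes, 2 rose and 7 fell in 86-1 (4.62% and 14.1% of all tested genes). In L-1-OL-1 1 rose and 5 fell (20.4% and 22.3% of all tested genes). The genes described as glyoxysomal were named by the same later choice as MFP-a. Glyoxysomal malate dehydrogenase gene53471 had 77.0, 109.5 and 157 FPKM in 86-1 at 27 DAF, against 37.0, 38.0 and 34.8 FPKM at 17 DAF, and it rose by 1.56 ± 0.41 (limma, adjusted p = 0.0208). This call was lost without replicate 2 or 3 of 86-1 at either stage (adjusted p = 0.0591 to 0.0761). In L-1-OL-1 the gene had 94.6, 152 and 154 FPKM at 27 DAF, against 40.5, 51.4 and 128 FPKM at 17 DAF, a difference of 1.00 ± 0.41 (limma, adjusted p = 0.0684), which was 0.67 (adjusted p = 0.207) without replicate 1 at 17 DAF.

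Glyoxysomal citrate synthase (gene54831), which makes the citrate that the cycle starts from, differed by cultivar. It had 26.5, 30.0 and 39.7 FPKM in 86-1 at 27 DAF, against 71.0, 72.3 and 64.7 FPKM in L-1-OL-1 at 27 DAF. It was lower in 86-1 at 27 DAF by a difference of -1.11 ± 0.41 (limma, adjusted p = 0.0407) and at 17 DAF by -1.28 ± 0.41 (limma, adjusted p = 0.035). The first call was lost without replicate 2 or 3 of 86-1 at 17 DAF, replicate 1 or 2 of 86-1 at 27 DAF, replicate 2 of L-1-OL-1 at 17 DAF or any 1 of L-1-OL-1 at 27 DAF (adjusted p = 0.0516 to 0.121), with quantile normalization (0.0663) and with no filter (0.0628). The second was lost without any 1 of 86-1 at 17 DAF, replicate 2 of either cultivar at 27 DAF, or the 17 DAF replicates 2 or 3 of L-1-OL-1 (adjusted p = 0.0501 to 0.136), with no filter (0.0535), with a mean of at least 5 FPKM (0.0549) and with the 6 libraries at 17 DAF alone (0.135). It was -1.81 (adjusted p = 0.000415) without replicate 1 of L-1-OL-1 at 17 DAF. The other glyoxysomal malate dehydrogenase, gene63251, passed no test, with means of 37.4 ± 18.7 FPKM in 86-1 at 27 DAF, 23.6 ± 7.47 in 86-1 at 17 DAF, 43.0 ± 1.74 in L-1-OL-1 at 27 DAF and 43.2 ± 30.0 FPKM in L-1-OL-1 at 17 DAF (SD, n = 3 each).

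A pair of malate dehydrogenase genes without a stated compartment fell. Gene43485 had 38.8, 45.7 and 38.8 FPKM in 86-1 at 27 DAF, against 153, 344 and 256 FPKM at 17 DAF, and fell by 2.51 (limma, adjusted p = 0.00435). Gene12948 had 47.1, 75.5 and 75.9 FPKM in L-1-OL-1 at 27 DAF, against 254, 154 and 199.9 FPKM at 17 DAF, and fell by 1.60 (limma, adjusted p = 0.00488). Both calls held in every setting and without any 1 library. Their falls in the other cultivar were less firm. For gene43485 in L-1-OL-1 the call (limma, adjusted p = 0.0393) was lost in 6 of 12 fits without 1 library (0.0508 to 0.165). It was also lost with no filter, a replicate block and the 6 L-1-OL-1 libraries alone. For gene12948 in 86-1 the call (limma, adjusted p = 0.0449) was lost in 9 of 12 such fits (0.0501 to 0.194). Both scalings, no filter and the 6 libraries of 86-1 alone lost it too. Isocitrate lyase and malate synthase had higher means at 27 than at 17 DAF in both cultivars, and these 2 genes had lower ones. The cytoplasmic aconitate hydratase gene10984 and the aconitase-type gene12637 passed in no comparison with all libraries.

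Sugar formation from the cycle's products starts with phosphoenolpyruvate carboxykinase. Of 7 tested gluconeogenesis genes, 3 rose and none fell in each cultivar. The shares over all tested genes were 4.62% risen and 14.1% fallen in 86-1, and 20.4% and 22.3% in L-1-OL-1. The median difference of the 7 genes was 0.98 in 86-1 and 1.205 in L-1-OL-1, beside -0.20 and -0.00125 over all tested genes. Phosphoenolpyruvate carboxykinase 1 (gene23445) had 51.8, 48.0 and 94.7 FPKM in 86-1 at 27 DAF, against 2.54, 2.02 and 2.78 FPKM at 17 DAF, and rose by 4.19 ± 0.86 (limma, adjusted p = 0.00602). The 27 DAF libraries lay far above those at 17 DAF, and the call held in every setting and without any 1 library. In L-1-OL-1 it had 103, 90.8 and 76.5 FPKM at 27 DAF, against 2.07, 14.2 and 92.4 FPKM at 17 DAF, the stages overlapping. The rise there, 2.47 ± 0.86 (limma, adjusted p = 0.0365), was lost without replicate 1 or 2 of L-1-OL-1 at 17 DAF, any 1 replicate of L-1-OL-1 at 27 DAF or replicate 1 of 86-1 at 27 DAF (adjusted p = 0.0511 to 0.0969), with no filter (0.0753) and with the 6 L-1-OL-1 libraries alone (0.17). It was 1.27 without replicate 1 of L-1-OL-1 at 17 DAF.

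Cytosolic fructose-1,6-bisphosphatase (gene39574), a later enzyme of sugar formation, had 216, 296 and 484 FPKM in 86-1 at 27 DAF, against 35.7, 23.8 and 23.1 FPKM at 17 DAF, and rose by 3.49 ± 0.80 (limma, adjusted p = 0.0104). In L-1-OL-1 it had 225, 164 and 162 FPKM at 27 DAF, against 15.1, 68.8 and 341 FPKM at 17 DAF, with overlapping stages and a difference of 1.33 ± 0.80 (limma, adjusted p = 0.199). That difference was 0.24 (adjusted p = 0.777) without replicate 1 at 17 DAF and 2.45 (adjusted p = 0.00402) without replicate 3. Phosphoenolpyruvate carboxykinase 2 (gene63500) had 99.9, 144 and 129.8 FPKM in 86-1 at 17 DAF, against 208, 848 and 957 FPKM in L-1-OL-1 at 17 DAF. It was lower in 86-1 by a difference of -2.16 ± 0.50 (limma, adjusted p = 0.00679), a call that held without any 1 library and was lost with the 6 libraries at 17 DAF alone (adjusted p = 0.0529). The value was -2.86 (adjusted p = 2.45e-05) without replicate 1 of L-1-OL-1 at 17 DAF. By stage, gene63500 averaged 249 FPKM at 27 DAF against 124 FPKM at 17 DAF in 86-1. In L-1-OL-1 it ran the other way, with 356 against 671 FPKM. Neither stage difference passed with all libraries. Over the alternative settings they were 0.78 to 1.44 in 86-1 and -1.35 to -0.25 in L-1-OL-1. The lowest adjusted p (limma) were 0.0235 and 0.00489, so each passed in some setting. The pyruvate, phosphate dikinase gene gene11510 averaged 209 ± 122 FPKM in 86-1 at 27 DAF, against 76.6 ± 2.60 FPKM at 17 DAF, and 282 ± 4.73 FPKM in L-1-OL-1 at 27 DAF, against 127 ± 44.2 FPKM at 17 DAF (SD, n = 3 each). It rose by 1.29 in 86-1 (limma, adjusted p = 0.033) and 1.205 in L-1-OL-1 (limma, adjusted p = 0.0235). The first call was lost without any 1 of 86-1 at 17 DAF or replicate 3 of 86-1 or 2 of L-1-OL-1 at 27 DAF (adjusted p = 0.0514 to 0.105) and with the 6 libraries of 86-1 alone (0.0703). The second was lost without replicate 2 of L-1-OL-1 at 17 DAF or any 1 at 27 DAF (adjusted p = 0.0538 to 0.0981).

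Catalase breaks down the peroxide that the oxidases release. Of 31 tested genes of catalases and peroxisome formation, 3 rose and 1 fell in 86-1 (4.62% and 14.1% of all tested genes). In L-1-OL-1 9 rose and 4 fell (20.4% and 22.3% of all tested genes). At 27 DAF 3 were higher and 10 lower in 86-1 than in L-1-OL-1 (21.2% and 27.1% of all tested genes). Catalase isozyme 1 gene52092 had 225, 193 and 352 FPKM in 86-1 at 27 DAF, against 29.4, 15.5 and 13.5 FPKM at 17 DAF. It had 563, 876 and 967 FPKM in L-1-OL-1 at 27 DAF, against 24.1, 106 and 448 FPKM at 17 DAF. The stages did not overlap in either cultivar, and the gene rose by 3.69 ± 0.78 in 86-1 (limma, adjusted p = 0.00678) and 2.88 ± 0.78 in L-1-OL-1 (limma, adjusted p = 0.0111), both without exception over single libraries. With the 6 L-1-OL-1 libraries alone the second had an adjusted p of 0.0924, and without replicate 1 of L-1-OL-1 at 17 DAF it was 1.84 (adjusted p = 0.0183).

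A gene with a catalase immune-responsive domain, gene60588, had 55.2, 94.6 and 206 FPKM in 86-1 at 27 DAF, against 4.47, 2.46 and 2.32 FPKM at 17 DAF. In L-1-OL-1 it had 819.7, 1952 and 1673 FPKM at 27 DAF, against 1.73, 18.2 and 201 FPKM at 17 DAF. It rose in L-1-OL-1 by 5.98 ± 1.13 (limma, adjusted p = 0.00148), a call that held in every setting, with 4.48 (adjusted p = 0.00101) without replicate 1 of L-1-OL-1 at 17 DAF. In 86-1 it rose by 4.71 ± 1.13 (limma, adjusted p = 0.0129), lost without replicate 2 or 3 at 17 DAF or replicate 3 at 27 DAF (adjusted p = 0.0515 to 0.054). At 27 DAF it was lower in 86-1 by a difference of -3.74 ± 1.13 (limma, adjusted p = 0.0161), lost without replicate 1 of 86-1 (adjusted p = 0.0668) or replicate 2 of L-1-OL-1 at 27 DAF (adjusted p = 0.0526). The catalase gene30539 passed in no comparison with all libraries. How the authors' counting treated reads shared between genes of the same description is unknown here, and their sequence similarity was not measured, so the values of single catalase genes are uncertain.

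Replicate 1 of L-1-OL-1 at 17 DAF had low values of several of these genes, as it did of isocitrate lyase and malate synthase, and the comparison of the cultivars at 17 DAF was repeated without it. The differences of 86-1 minus L-1-OL-1 were then -3.46 for phosphoenolpyruvate carboxykinase 1 (gene23445; limma, adjusted p = 0.000449) and -2.25 with all libraries (adjusted p = 0.074). For cytosolic fructose-1,6-bisphosphatase (gene39574) they were -2.47 (adjusted p = 0.00349) and -1.38 (adjusted p = 0.24), and for acyl-CoA synthetase 7 (gene10240) -2.05 (adjusted p = 0.00183) and -1.19 (adjusted p = 0.187). The catalase gene52092 was lower in 86-1 both ways, with differences of -3.50 (adjusted p = 0.000292) and -2.46 (adjusted p = 0.0339), though the second call was lost without replicate 2 or 3 of either cultivar at 17 DAF or replicate 1 of 86-1 at 27 DAF (adjusted p = 0.0504 to 0.111), with no filter (0.0649), with a mean of at least 5 FPKM (0.0529) and with the 6 libraries at 17 DAF alone (0.122). Without replicate 3 of that group in place of replicate 1 the differences were -0.99 for gene23445 (adjusted p = 0.243), -0.26 for gene39574 (adjusted p = 0.809), -0.44 for gene10240 (adjusted p = 0.624) and -1.42 for gene52092 (adjusted p = 0.107).

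Beyond the route, the genes most like each of the 3 were found by Pearson r of log2(FPKM + 1) over the 12 libraries, among 7908 described genes with a mean of at least 10 FPKM. For isocitrate lyase the nearest were a dimethylaniline monooxygenase gene (gene77092, r = 0.989), an NDH dependent flow 6 gene (gene22436, 0.984) and a UDP-glucosyltransferase gene (0.983). Gene77092 had 20.9 to 30.8 FPKM in 86-1 at 27 DAF and 0.410 to 1.01 FPKM at 17 DAF, far below isocitrate lyase in level. For malate synthase the nearest were an SLE3 gene (gene78321, r = 0.989), the catalase gene52092 (0.988) and a zinc-type alcohol dehydrogenase gene (gene2438, 0.988). The small heat shock gene gene28728 followed closely (0.983), with 2702 to 5673 FPKM in L-1-OL-1 at 27 DAF. For acyl-CoA oxidase 4 the nearest were an enhancer of polycomb-like gene (gene77311, r = 0.985), peroxin 5 (gene23051, 0.979), the receptor that brings proteins into the peroxisome, and geranyl diphosphate synthase 1 (gene9158, 0.977). Peroxin 5 had 20.5 to 37.0 FPKM in 86-1 and 66.2 to 74.7 FPKM in L-1-OL-1 at 27 DAF. All these genes were picked by their correlation over the same 12 libraries, so a pattern like that of the 3 genes follows from the choice. No gene was among the 5 nearest of more than 1 of the 3.

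Markers of a drying seed (91 genes, such as late embryogenesis abundant proteins and dehydrins) moved with isocitrate lyase and malate synthase. They made up 2.29% to 4.20% of the summed FPKM in 86-1 at 27 DAF and 0.356% to 0.569% in 86-1 at 17 DAF. Acyl-CoA oxidase 4, in contrast, overlapped between these stages of 86-1. In L-1-OL-1 the markers made up 5.21% to 7.50% at 27 DAF and 0.546%, 1.52% and 4.14% at 17 DAF. The library with 0.546%, replicate 1, was also the one with the lowest isocitrate lyase and malate synthase levels of its group, and the one with 4.14%, replicate 3, had the highest. Over the 12 libraries, as a description, the marker sum had r = 0.955 with isocitrate lyase, 0.986 with malate synthase and 0.764 with acyl-CoA oxidase 4 on a log scale. Seed reserve genes had r = -0.41, -0.47 and -0.887 with the 3 genes over all 12 libraries. They made up 11.6% to 22.4% of 86-1 libraries at 27 DAF and 6.51% to 19.4% of those at 17 DAF. In 86-1 the lowest and highest shares were thus greater at 27 DAF, as were isocitrate lyase and malate synthase levels, though the shares overlapped. In L-1-OL-1 seed reserve genes made up 2.86% to 3.62% at 27 DAF and 17.1%, 11.1% and 3.10% at 17 DAF. Genes of the hull and secondary wall had r = -0.586, -0.719 and -0.627 with the 3 genes, and genes of green tissue 0.59, 0.494 and 0.513. Green tissue genes made up 0.0224%, 0.154% and 0.168% of replicates 1, 2 and 3 of L-1-OL-1 at 17 DAF. The part of seed drying or of seed composition in the levels of the 3 genes was not tested.

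**Figure D4:**
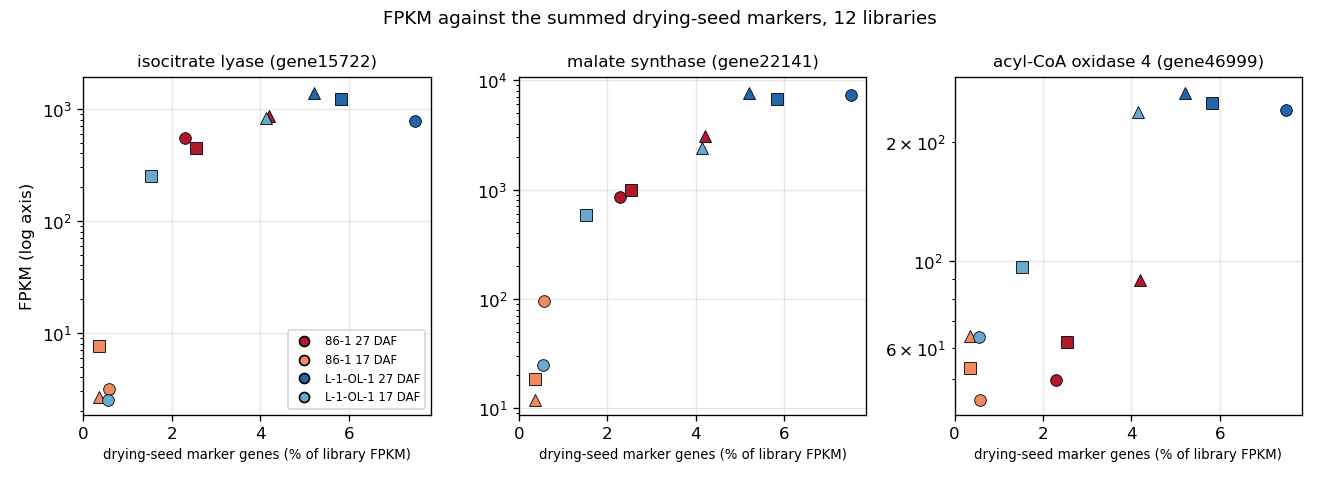
FPKM (log axis) of isocitrate lyase, malate synthase and acyl-CoA oxidase 4 against the summed drying-seed markers as a percentage of each library's FPKM, with 1 point per library (12 in all), colours for the groups and circles, squares and triangles for replicates 1, 2 and 3. Replicate 1 of L-1-OL-1 at 17 DAF lies with the 86-1 libraries at 17 DAF, at 0.546% of markers, and acyl-CoA oxidase 4 of 86-1 at 27 DAF stays at 89.0 FPKM or less at marker shares of 2.29% to 4.20%.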

How the data were processed

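RNA of 12 seed libraries was sequenced on an Illumina instrument, per the labels' protocols. The authors deposited a table of FPKM values per gene and a table of protein database matches, whose description names each gene. The match score deposited with it was used in no result. The submitters' processing notes list the tools RSEM 1.2.12, Bowtie2 2.2.5, HISAT2 2.0.4 and DESeq2 1.4.5 without roles; genome build and annotation are not given in these sources. Read counts per library were not used here, so precision is given by the spread between libraries.

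The 3 genes and all gene lists were chosen with earlier results of these data known. Genes with at least 1 FPKM in at least 3 libraries (30020) were tested on log2(FPKM + 1) with limma 3.58.1 (R 4.3.3): 1 model of 4 group means, a mean-variance trend, moderated statistics, and Benjamini-Hochberg adjustment over all tested genes, called at an adjusted p under 0.05. The procedure was tested on simulated data. By the rule, genes to name were the remaining oxidases, the 4 of highest mean FPKM in each pathway list and the 5 genes most like each selected gene; not all of these are described, and exceptions are marked. Alternatives were median-of-ratios scaling, quantile normalization, a pseudocount of 0.1, no filter, a mean of at least 5 FPKM, a replicate block, the 6 compared libraries only and leaving out each library. None of the gene identifiers matched the reference gene table, so no positions or sequences are given. Figures were drawn with matplotlib 3.10.9.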

Additional observations from a re-analysis of the deposited data

Results flagged for a closer look

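By the difference of the stage changes (86-1 minus L-1-OL-1) in limma, 12 of the 106 tested genes of the oil breakdown route differed between the cultivars. This was 11.3% of them, a smaller share than the 22.1% of all 30020 tested genes. Of the 12 genes, 4 are described here. The peroxisomal 3-keto-acyl-CoA thiolase 2 gene (gene2190), which completes a round of beta-oxidation, and the catalase 3 gene (gene30538) were singled out after their values were seen. Gene2190 had 10.95, 24.7 and 15.4 FPKM in 86-1 at 27 DAF, against 24.7, 33.4 and 37.1 FPKM at 17 DAF, and 9.20, 3.43 and 0.806 FPKM in L-1-OL-1 at 27 DAF, against 44.4, 93.5 and 83.0 FPKM at 17 DAF. It fell in L-1-OL-1 by 4.04 (limma, adjusted p = 0.000149), had -0.91 in 86-1 (adjusted p = 0.284), and the changes differed by 3.12 (adjusted p = 0.0131).

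Gene30538 had 42.0, 51.8 and 153 FPKM in 86-1 at 27 DAF, against 113, 127 and 184 FPKM at 17 DAF, and 7.12, 0.058 and 0 FPKM in L-1-OL-1 at 27 DAF, against 105, 297 and 415 FPKM at 17 DAF. It fell in L-1-OL-1 by 6.85 (limma, adjusted p = 5.72e-05), had -0.98 in 86-1 (adjusted p = 0.45), and the changes differed by 5.86 (adjusted p = 0.00369). The calls of gene2190 and gene30538 held in every setting and without any 1 library, and in L-1-OL-1 both genes ran opposite to isocitrate lyase and malate synthase.

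Catalase isozyme 1 gene52089, which has the same description as gene52092, had 227, 254 and 459.9 FPKM in 86-1 at 27 DAF, against 146, 99.9 and 92.0 FPKM at 17 DAF, and 74.6, 74.4 and 77.2 FPKM in L-1-OL-1 at 27 DAF, against 77.5, 475 and 526 FPKM at 17 DAF. The stage changes differed by 3.25 (limma, adjusted p = 0.0187), and the call was lost without replicate 2 of L-1-OL-1 at 17 DAF (adjusted p = 0.0511). The 3-hydroxyacyl-CoA dehydrogenase gene43166 had a difference of -1.33 (limma, adjusted p = 0.0383), lost in 8 of the 12 fits without 1 library (adjusted p = 0.0548 to 0.0969), those without replicate 2 or 3 at 17 DAF or 1 or 2 at 27 DAF of 86-1, or without replicate 2 at 17 DAF or any 1 at 27 DAF of L-1-OL-1.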

How the results depend on the processing

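Of 225 alternative values for the 3 selected genes, 221 moved by less than 1 SD between replicates, and 4 moved further. The 225 include fits without a library outside the comparison, which cannot change its difference. The SD of each gene also includes the spread from replicate 1 of L-1-OL-1 at 17 DAF. The count of 221 is therefore partly set by the design and is no measure of stability. The 4 were the isocitrate lyase differences that rest on replicate 1 of L-1-OL-1 at 17 DAF, given above, and the difference of the stage changes of acyl-CoA oxidase 4, which was -0.22 under quantile normalization, against -0.87. That of malate synthase changed sign, to -0.32, without replicate 3 of L-1-OL-1 at 17 DAF. Over all tested genes, 8111 passed the cultivar comparison at 17 DAF, 14485 that at 27 DAF, 5633 the stage comparison in 86-1, 12799 that in L-1-OL-1 and 6634 the difference of the stage changes. A filter at a mean of 5 FPKM tested fewer genes and gave 2300, 7003, 2820, 7112 and 3632. The 6 compared libraries alone gave 5137 at 17 DAF, and quantile normalization gave 10073 for the difference of the stage changes. Median-of-ratios scaling and quantile normalization gave 2929 and 3396 genes that rose and 3563 and 3256 that fell in 86-1, against 1388 and 4245; median-of-ratios scaling gave 4770 positive and 5014 negative differences of the stage changes, against 2553 and 4081, and quantile normalization 9343 risen and 6339 fallen genes in L-1-OL-1, against 6119 and 6680. Without 1 library the totals were 5448 to 12295 at 17 DAF, 2747 to 7576 in 86-1 and 4025 to 9406 for the difference of the stage changes. For the 106 pathway genes the mean filter gave 6 at 17 DAF and 23 at 27 DAF, against 22 and 38; the 6 compared libraries gave 11 at 17 DAF and 22 in the L-1-OL-1 stages, against 36. Quantile normalization gave 35 in 86-1, against 23, and 20 for the difference of the stage changes, against 12, where median-of-ratios scaling gave 21. Without 1 library they were 13 to 51 at 17 DAF, 7 to 30 in 86-1, 23 to 49 in L-1-OL-1 and 7 to 26 for the difference. Causes were not tested. Same-numbered libraries deviated with r of -0.226 to 0.459, over 0.1 in 4 of 18 pairs. With so few libraries a group, these values cannot settle whether same-numbered libraries share more than a number. With a replicate block 8472, 15832, 6539, 14265 and 8165 genes passed the 5 comparisons in the order above. Each of these totals was above that without the block. Depth in reads is unknown, so its limits on low genes such as gene80352 cannot be stated.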
